A study of Sus scrofa with 9 samples.

Results

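The genes described here are the translation initiation factors, translation elongation factors and aminoacyl-tRNA synthetases of pig muscle, chosen by gene symbol alone. A table entry belonged to the set if its pig symbol began with EIF and a digit or with EEF1 or EEF2, or if it was a single letter followed by ARS, with or without a final 1 or 2. The rule found 69 genes among 19643 table entries, of which 11179 carry a symbol. They comprised 29 initiation factors, 7 regulators of initiation, 4 elongation genes, 15 cytosolic synthetases and 14 mitochondrial synthetases. RNA was sequenced from embryonic longissimus dorsi, a long back muscle, in 9 libraries, with 3 from Tibetan, 3 from Wujin and 3 from Large White pigs. Tibetan and Wujin pigs are indigenous Chinese breeds. The labels give the stage only as embryonic, name no gestational day, treatment or genetic modification, and do not say whether a breed's libraries are separate animals. P-values therefore measure only the spread between these libraries, which may be technical.

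Protein synthesis begins when eIF2 brings the initiator tRNA to the small ribosomal subunit, eIF1 helps this complex choose the start codon, and eIF3 holds the machinery together. The cap-binding protein eIF4E, the scaffold eIF4G and the RNA helicase eIF4A recruit the mRNA. The exchange factor eIF2B recharges eIF2, kinases that phosphorylate eIF2 slow initiation under stress, and 4E-binding proteins hold eIF4E away from eIF4G when growth signalling is low. Elongation factors then deliver each aminoacyl-tRNA and move the ribosome along. The synthetases join each amino acid to its tRNA, mostly with separate enzymes for the cytosol and the mitochondrion. KARS1 and GARS1, counted here as cytosolic, serve both. Growing muscle depends on this machinery, since fibre growth requires net accumulation of protein.

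Values are FPKM, fragments scaled by transcript length and library size, so that levels can be compared between genes. The Tibetan libraries stood apart from the others over all entries. The correlation of log2 values was 0.940 to 0.968 between libraries of a breed and 0.890 to 0.955 between Wujin and Large White. It was 0.749 to 0.785 between Tibetan and Wujin and 0.697 to 0.742 between Tibetan and Large White. The 10 highest entries held 32.6 to 40.8% of all FPKM in Tibetan libraries, 22.3 to 22.8% in Wujin and, in Large White, 18.8 to 24.96%. The median FPKM of tested entries was 3.15 to 3.61, 4.84 to 6.27 and 6.72 to 7.20 in the same order. Muscle markers were high in sum in every library, with 7 of 10 listed genes found. They summed to 22302 to 68269 FPKM in Tibetan, 17368 to 21131 in Wujin and, in Large White, 9094 to 12397. The listed genes did not move alike. ACTA1, DES, NEB and TNNC2 had their highest means in Tibetan, although the skeletal actin gene ACTA1 was listed at 0 in Tibetan 2. MYF5, MYMK and MYOD1 had means of 4.68, 4.41 and 25.7 FPKM in Tibetan. Their means were 50.7, 145 and 54.4 FPKM in Wujin and 46.9, 102 and 47.9 in Large White. Other cell types moved with breed. The 6 fibroblast and matrix genes summed to 319 to 356 FPKM in Tibetan, 3059 to 5569 in Wujin and, in Large White, 5299 to 5935. The 3 erythroid genes found of 6 summed to 146 to 575, 1464 to 3822 and 1919 to 3731 FPKM, and the 3 endothelial genes found of 5 to 29.7 to 39.2, 45.8 to 72.7 and 75.1 to 79.9 FPKM. The 5 cell cycle genes summed to 1.10 to 1.86 FPKM in Tibetan libraries, each of them under 1 FPKM in all 3, against 57.1 to 77.6 and 105 to 109.6 in Wujin and Large White. The part of these differences in the results on translation genes was not tested, and in bulk tissue fewer cells of a type and less RNA per cell cannot be told apart.

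Translation factors and synthetases were more often lower than higher in Tibetan against Large White muscle on the deposited scale, and more often higher than lower after median-ratio scaling. Entries whose mean reached 1 FPKM were tested with limma on log2(FPKM + 1), and 67 of the 69 genes passed that filter. As deposited, 7 of the 67 were higher in Tibetan and 33 lower at an adjusted p under 0.05, or 10.4% and 49.3%, where 13% and 63.2% of all 13106 entries tested were called. With libraries rescaled by median ratios, 37 were higher and 6 lower, where 32.4% and 33% of all entries were called. The fitted change of the median entry was −0.77 as deposited. Each gene's change relative to that median is given below as its relative change, and its median over the 67 genes was 0.34, against 0 over all entries by definition. Called on both scales in the same direction were 7 genes that rose and 6 that fell, or 10.4% and 8.96%. Of the 13106 entries, 1703 and 4326 were, or 13% and 33%. The 7 were EIF1, SARS1, EIF4EBP1, EIF2S2, EIF3J, EIF4A2 and EIF2D, and those that fell include EIF4A1, EIF4ENIF1, EIF2AK3, RARS2 and PARS2.

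**Figure D1:**
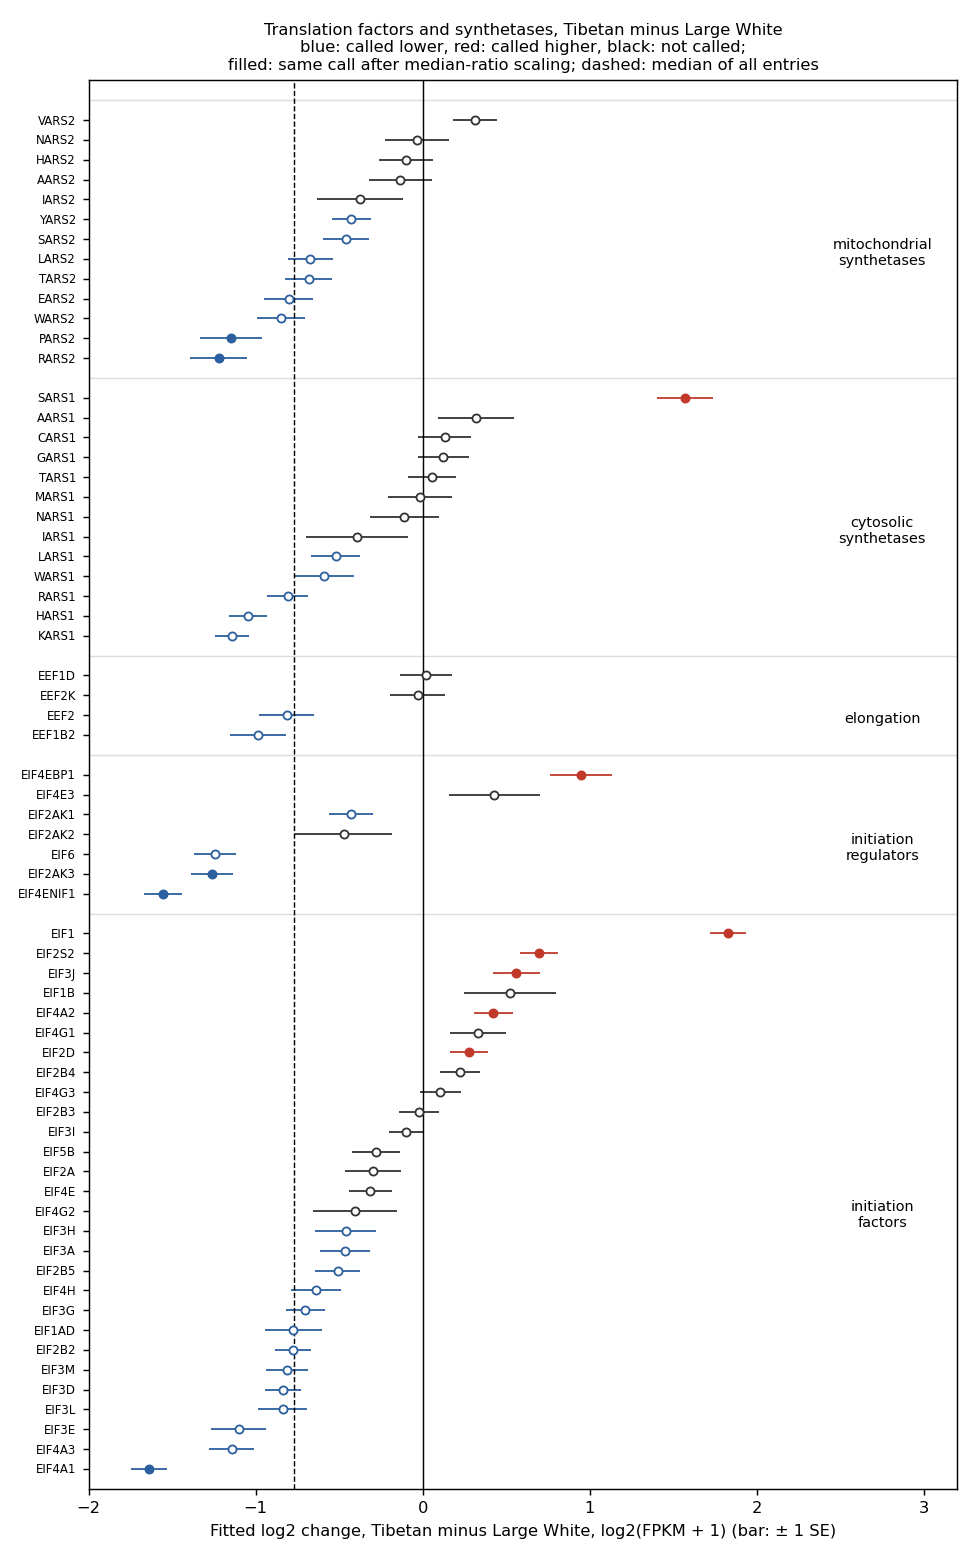
Fitted log2 change, Tibetan minus Large White, of tested genes on the scale log2(FPKM + 1), grouped by role, with bars of 1 standard error. Red points were called higher and blue points lower by limma on FPKM as deposited, filled points had the same call after median-ratio scaling (under which 37 of the 67 tested were higher and 6 lower), and the dashed line at −0.77 is the median of all entries.

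Against Wujin, the Tibetan libraries had 15 of the 67 genes higher and 24 lower as deposited, where 13.8% and 53.9% of all entries were called, and 43 higher and 4 lower after median-ratio scaling, where 30.9% and 30.4% were. The median entry changed by −0.55 and the median relative change of the 67 genes was 0.42. Both comparisons use the same Tibetan libraries, so they are not separate evidence. An F test over the breeds called 50 of 67 genes as different, where it called 77.6% of all entries.

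By role, the summed levels showed different orders of the breeds as deposited. Initiation factors summed to 2181 to 2459 FPKM in Tibetan, 1712 to 1909 in Wujin and, in Large White, 2095 to 2259, so Tibetan and Large White overlapped. Elongation genes summed to 1040.3 to 1182, 1489 to 1565 and 1802 to 1914 FPKM, and cytosolic synthetases to 337 to 403, 415 to 455 and 528 to 552 FPKM. For those groups Tibetan was lowest, Wujin intermediate and Large White highest, with no overlap between breeds. Mitochondrial synthetases, far less abundant, summed to 38.9 to 52.8, 48.8 to 62.8 and 71.1 to 77.3 FPKM, and here Tibetan and Wujin overlapped. Initiation regulators summed to 283 to 423, 253 to 297 and 229 to 283 FPKM in the same order of breeds, with the highest libraries in Tibetan and overlap between every pair of breeds. These sums are dominated by a few abundant genes and move with the scaling of a library.

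EIF1, which keeps the scanning ribosome from starting at the wrong codon, showed the largest rise of all 67 genes in Tibetan muscle. It stood at 809, 755 and 829.5 FPKM in Tibetan 1, 2 and 3. Wujin 1, a and b had 234, 230.5 and 208 FPKM, and Large White 1, 2 and 3 had 237, 220.4 and 215 FPKM. Every Tibetan library lay far above all others, and Wujin and Large White overlapped. The mean was 3.56-fold that of Large White and of Wujin, with a fitted log2 change of 1.83 ± 0.11 (SE) against either (limma adjusted p = 7.28e-07 against Large White). After median-ratio scaling the change was 2.80 against Large White and 2.57 against Wujin. Its paralogue EIF1B did not pass the test as deposited, at 71.6, 49.6 and 51.0 FPKM in Tibetan, 23.3, 48.0 and 51.1 in Wujin and 39.7, 41.4 and 36.4 in Large White libraries. Wujin 1 was the low library there, and without it EIF1B was called higher against Large White (adjusted p = 0.012 in limma, log2 change 0.52). With all libraries EIF1B was called higher against Large White and Wujin after median-ratio scaling (1.48 and 1.27) and under quantile normalization (0.76 and 0.67). EIF1B made up 5.79 to 8.12% of EIF1 plus EIF1B in Tibetan, 9.04 to 19.7% in Wujin and, in Large White, 14.3 to 15.8%, a description with no test.

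**Figure D2:**
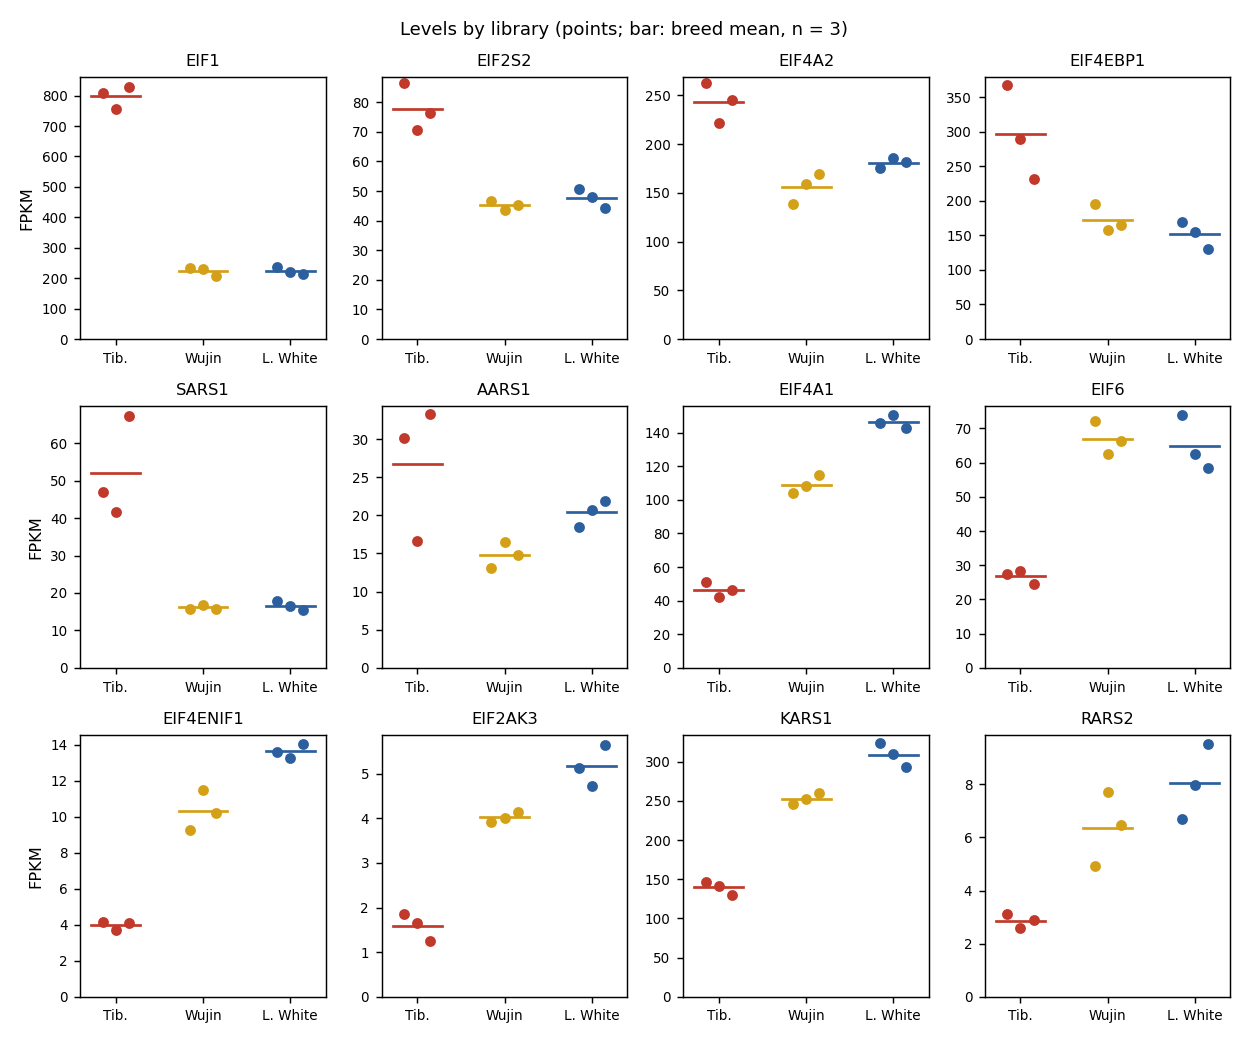
FPKM of 12 genes in each library, with points for libraries, horizontal bars for breed means (n = 3) and axes that start at 0. The 3 Tibetan libraries lie above all 6 others for EIF1, EIF2S2, EIF4A2, EIF4EBP1 and SARS1, and below all 6 for EIF4A1, EIF6, EIF4ENIF1, EIF2AK3, KARS1 and RARS2, on the deposited scale. AARS1 is split by Tibetan 2 at 16.7 FPKM.

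EIF2S2, the beta subunit of eIF2, also rose in Tibetan muscle. Its levels were 86.4, 70.8 and 76.4 FPKM in Tibetan, 46.7, 43.8 and 45.4 in Wujin and 50.7, 47.9 and 44.2 in Large White libraries. Tibetan did not overlap the other breeds, which overlapped each other. The log2 change was 0.69 ± 0.11 against Large White and 0.76 ± 0.11 against Wujin (limma adjusted p = 0.000397 and 0.000272), and 1.66 and 1.49 after median-ratio scaling. EIF2D, which can deliver tRNA to the ribosome outside the eIF2 route, was called higher by a narrow margin against Large White (log2 change 0.28, adjusted p = 0.047 in limma). That call was lost without any 1 of 7 of the 9 libraries, at adjusted p = 0.0618 to 0.169, whereas the call against Wujin (0.46) was not lost without any single library. No subunit gene of eIF2 other than EIF2S2 had a matched entry, so EIF2S1 and EIF2S3 were not analysed here.

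Of the eIF2B exchange factor, 4 subunits were measured, and they did not move alike. EIF2B2, the beta subunit, had 17.7, 15.7 and 15.4 FPKM in Tibetan, 19.5, 21.7 and 21.6 in Wujin and 29.8, 29.4 and 26.8 in Large White libraries, a graded order with no overlap between breeds. It fell against Large White as deposited by 0.78 on the log2 scale, but the change was 0.16 and not called after median-ratio scaling. Against Wujin it was called lower as deposited (−0.34) and higher after median-ratio scaling (0.36), and the deposited call was lost without Tibetan 3, Wujin a or Wujin b (adjusted p = 0.0509 to 0.0610 in limma). EIF2B5, the catalytic epsilon subunit, stood at 9.18, 7.43 and 8.06 FPKM in Tibetan, 8.06, 11.3 and 9.60 in Wujin and 12.1, 12.2 and 11.96 in Large White libraries. It was called lower against Large White as deposited (−0.51) and higher after median-ratio scaling (0.38), so its direction is a matter of scale. EIF2B3 and EIF2B4, the gamma and delta subunits, were called higher against Wujin on both scales, with log2 changes of 0.42 and 0.48 as deposited. The EIF2B3 call was lost without Wujin a (adjusted p = 0.0503 in limma). Against Large White EIF2B3 and EIF2B4 were not called as deposited but were called higher after median-ratio scaling (0.85 and 1.14) and under quantile normalization (0.72 and 0.82).

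The 9 measured subunits of eIF3, the large scaffold of the initiation complex, were close to the median entry as a group. Against Large White, 7 were lower, 1 was higher and 1 was not called as deposited, with a median relative change of 0.07. Of all entries, 63.2% were called lower and 13% higher. After median-ratio scaling 4 of the 9 subunits were higher, none lower and 5 not called, where 32.4% and 33% of all entries were called higher and lower. EIF3E had 80.5, 91.0 and 61.7 FPKM in Tibetan, 159, 119 and 140.2 in Wujin and 169.9, 170.2 and 158 in Large White libraries. All Tibetan libraries were below all others, with a log2 change of −1.10 as deposited and −0.13, not called, after median-ratio scaling. EIF3D, a cap-binding subunit, was likewise lower, at 43.5 to 47.2 FPKM in Tibetan, 81.5 to 92.8 in Wujin and, in Large White, 75.8 to 89.3, a change of −0.84 as deposited that became 0.13 and was not called after median-ratio scaling. EIF3A, the largest subunit, was lower against Large White as deposited by a change of −0.47. That call was lost without Tibetan 2, Tibetan 3 or Large White 3 (adjusted p = 0.052 to 0.054 in limma), and after median-ratio scaling EIF3A was called higher (0.48).

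EIF3J, a loosely attached subunit, stood apart from the rest of eIF3. It had 46.6, 40.2 and 44.8 FPKM in Tibetan, 40.9, 30.4 and 31.4 in Wujin and 32.3, 28.9 and 27.1 in Large White libraries. Tibetan lay above Large White, while Wujin 1 reached into the Tibetan range. It rose against Large White (0.56 ± 0.14, limma adjusted p = 0.00507, and 1.51 after median-ratio scaling). Against Wujin the change was 0.36 with an adjusted p of 0.045 in limma, and the call was lost without any 1 of 7 libraries, among them every Large White library, at adjusted p = 0.051 to 0.152.

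The 2 genes for the RNA helicase eIF4A moved in opposite directions. EIF4A1, the form known for cap-dependent initiation in growing cells, had 51.0, 42.2 and 46.1 FPKM in Tibetan, 104, 108 and 115 in Wujin and 146, 150.4 and 143 in Large White libraries. The 3 breeds did not overlap, and Tibetan was lowest. EIF4A1 fell in Tibetan by 1.64 on the log2 scale against Large White and by 1.22 against Wujin (limma adjusted p = 1.41e-06 and 1.10e-05), and was still called lower after median-ratio scaling, by changes of −0.67 and −0.49. EIF4A2, its close paralogue, had 263, 222 and 245 FPKM in Tibetan, 139, 159 and 169 in Wujin and 175, 186 and 182 in Large White libraries. Here Tibetan was highest and Wujin lowest, again with no overlap. EIF4A2 rose by 0.42 ± 0.12 against Large White and 0.64 ± 0.12 against Wujin (limma adjusted p = 0.00919 and 0.00107), and by 1.40 and 1.38 after median-ratio scaling.

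The balance between the 2 helicase genes can be read within each library, where the scaling of that library drops out. EIF4A2 made up 83.7, 84.0 and 84.2% of EIF4A1 plus EIF4A2 in Tibetan libraries. The share was 57.1, 59.6 and 59.6% in Wujin and 54.6, 55.3 and 56.0% in Large White libraries. The Tibetan share was uniform and far from the others, and the Wujin share lay just above that of Large White without overlap. The share was chosen after the values were seen and is given with no test. How reads shared by these similar genes were counted is not given in the sources used here. EIF4A3, a relative that works in the exon junction complex and not in initiation, was 5.77 to 8.04, 11.9 to 14.2 and 15.4 to 16.9 FPKM in Tibetan, Wujin and Large White. It was lower in Tibetan as deposited (−1.14 against Large White and −0.90 against Wujin) and was not called after median-ratio scaling.

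**Figure D3:**
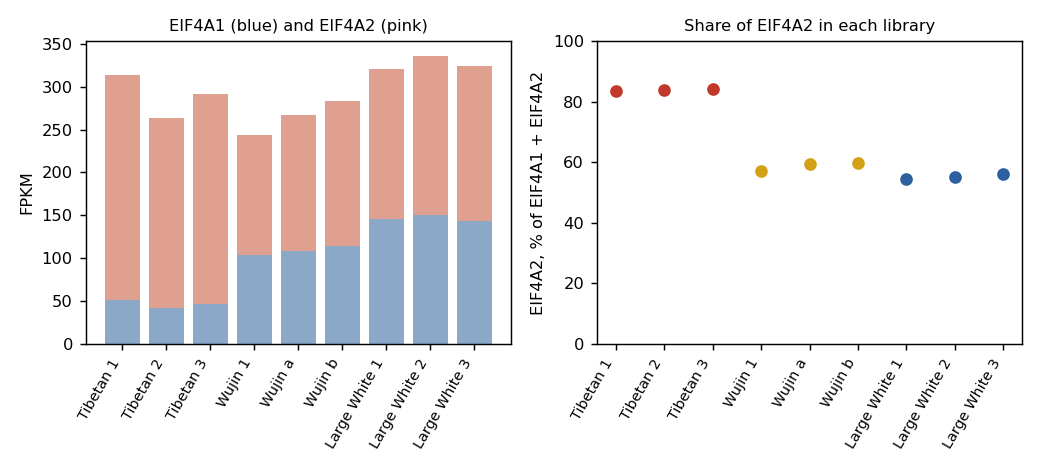
Left, stacked bars of FPKM of EIF4A1 (blue) and EIF4A2 (pink) in each library. Right, EIF4A2 as a percent of their sum, which is 83.7 to 84.2% in the 3 Tibetan, 57.1 to 59.6% in the 3 Wujin and 54.6 to 56.0% in the 3 Large White libraries.

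The other parts of the cap-binding complex changed less as deposited. EIF4E, which binds the cap, had 6.90, 5.42 and 6.75 FPKM in Tibetan, 5.52, 6.55 and 5.81 in Wujin and 7.49, 9.09 and 7.83 in Large White libraries. Tibetan overlapped Wujin and lay below Large White, and the change against Large White (−0.31) missed the threshold at an adjusted p of 0.0504 in limma. Without Tibetan 1 or Wujin 1 it was called lower (adjusted p = 0.0487 and 0.0400 in limma), and after median-ratio scaling it was called higher (0.55). EIF4G1, the main scaffold, had 55.8, 38.8 and 62.4 FPKM in Tibetan, 34.2, 39.6 and 35.8 in Wujin and 39.0, 40.2 and 42.8 in Large White libraries. Tibetan 2 fell into the range of the other breeds, and without it EIF4G1 was called higher against Large White (0.53, limma adjusted p = 0.00331). EIF4G1 was called higher against Wujin (0.48, adjusted p = 0.029 in limma), and that call was lost without Tibetan 1, Tibetan 3, Wujin 1 or Wujin b at adjusted p = 0.067 to 0.097.

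EIF4G3, a second scaffold, behaved more evenly. It had 27.1, 21.9 and 25.7 FPKM in Tibetan, 15.4, 19.2 and 17.7 in Wujin and 22.5, 23.3 and 23.2 in Large White libraries. Tibetan was above Wujin and overlapped Large White. The change of 0.49 against Wujin was called (limma adjusted p = 0.00618) and that of 0.10 against Large White was not, although after median-ratio scaling it was, at 1.04. EIF4G2, a scaffold that does not bind eIF4E and serves cap-independent initiation, had 125.9 to 204, 102 to 189.9 and 215 to 233 FPKM in the same order of breeds. It was not called as deposited but was called higher in Tibetan after median-ratio scaling (0.56 against Large White and 0.88 against Wujin), with Wujin 1 (102 FPKM) and Tibetan 2 (125.9 FPKM) the low libraries of their breeds.

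Among the regulators of initiation, EIF4EBP1 rose. This 4E-binding protein, a target of mTOR, had 367, 289 and 232 FPKM in Tibetan, 195, 158 and 165 in Wujin and 169.5, 155 and 129.9 in Large White libraries. Every Tibetan library was above every other library, and Wujin overlapped Large White. The change was 0.95 ± 0.18 against Large White and 0.76 ± 0.18 against Wujin (limma adjusted p = 0.00116 and 0.00503), and 1.92 and 1.495 after median-ratio scaling. Per unit length the mRNA of this inhibitor was far more abundant than that of its target EIF4E in all 9 libraries. EIF4E3, a minor member of the cap-binding family, had 10.5, 6.91 and 8.47 FPKM in Tibetan, 1.53, 3.91 and 4.38 in Wujin and 5.62, 6.74 and 5.92 in Large White libraries. It rose against Wujin (1.23 ± 0.27, limma adjusted p = 0.00296). Against Large White it was not called as deposited (0.43), and it was called without Wujin 1 (adjusted p = 0.026 in limma) and after median-ratio scaling (1.29).

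EIF4ENIF1, the transporter that carries eIF4E into the nucleus and to processing bodies, fell in Tibetan muscle. It had 4.15, 3.69 and 4.10 FPKM in Tibetan, 9.28, 11.5 and 10.2 in Wujin and 13.6, 13.2 and 14.0 in Large White libraries. The breeds did not overlap and stood in the order Tibetan, Wujin, Large White. The fall was 1.55 on the log2 scale against Large White and 1.18 against Wujin (limma adjusted p = 2.30e-06 and 1.60e-05), and the changes after median-ratio scaling, −0.71 and −0.55, were also called. EIF6, which keeps the large ribosomal subunit from joining too early and is needed for making it, had 27.6, 28.2 and 24.4 FPKM in Tibetan, 72.3, 62.5 and 66.2 in Wujin and 74.1, 62.4 and 58.4 in Large White libraries. Tibetan was separate and the others overlapped. As deposited EIF6 was lower by changes of −1.25 and −1.29, and after median-ratio scaling it was called lower against Wujin (−0.57) but not against Large White (−0.29).

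Of the kinases that phosphorylate eIF2, 3 had an entry. EIF2AK3, known as PERK, the kinase of endoplasmic reticulum stress, had 1.85, 1.65 and 1.24 FPKM in Tibetan, 3.92, 4.01 and 4.14 in Wujin and 5.14, 4.73 and 5.65 in Large White libraries. The breeds did not overlap. EIF2AK3 fell by 1.26 against Large White and 0.97 against Wujin on the log2 scale (limma adjusted p = 1.78e-05 and 0.000127), with changes of −0.55 and −0.46 after median-ratio scaling, both called. The call against Wujin was lost under quantile normalization (adjusted p = 0.056). EIF2AK1, the haem-regulated kinase, stood at 8.15 to 11.4, 10.4 to 11.3 and 13.2 to 14.6 FPKM in the order Tibetan, Wujin, Large White. It was called lower against Large White as deposited (−0.43), a call lost without Large White 1 (adjusted p = 0.054 in limma), and higher after median-ratio scaling (0.47). EIF2AK2, known as PKR, the kinase that senses double-stranded RNA, was near the filter and varied within breeds, at 1.21, 0.76 and 0.81 FPKM in Tibetan, 3.89, 1.87 and 2.08 in Wujin and 0.73, 2.30 and 2.29 in Large White libraries. Tibetan was below Wujin (−0.87, limma adjusted p = 0.023), but the call was lost without Tibetan 2, Tibetan 3 or Wujin 1 at adjusted p = 0.063 to 0.071, after median-ratio scaling (−0.47, adjusted p = 0.195 in limma) and under quantile normalization (−0.21, adjusted p = 0.592). Against Large White EIF2AK2 was not called, and Large White 1 was the low library of its breed. Without Large White 1 it was called lower (adjusted p = 0.019 in limma).

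Only 4 elongation genes had an entry, and the 2 genes of elongation factor 1 alpha were not among them. EEF2, the translocase that moves the ribosome by a codon, had 706, 467 and 612 FPKM in Tibetan, 689, 844 and 827 in Wujin and 1055, 1001 and 1039 in Large White libraries. Tibetan was below Large White, and Tibetan 1 was above Wujin 1. The change against Large White was −0.81 ± 0.16 (limma adjusted p = 0.00149) as deposited and 0.16, not called, after median-ratio scaling. Against Wujin it was −0.42 with an adjusted p of 0.047 in limma, a call lost without any 1 of 7 libraries at adjusted p = 0.064 to 0.137, and 0.32, not called, after median-ratio scaling. EEF1B2, the exchange factor that recharges elongation factor 1 alpha, had 316, 414 and 255 FPKM in Tibetan, 578, 549 and 548 in Wujin and 676, 634 and 607 in Large White libraries. It was below both breeds in every Tibetan library (−0.99 and −0.79 as deposited), and after median-ratio scaling its changes were −0.01 and −0.05, not called. Tibetan 2 was the lowest Tibetan library for EEF2 and the highest for EEF1B2.

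EEF1D, another subunit of that exchange complex, did not follow EEF1B2. Its levels were 142 to 179 FPKM in Tibetan, 151 to 214 in Wujin and, in Large White, 150.1 to 169, all overlapping, with a change of 0.02 against Large White as deposited and 0.99 after median-ratio scaling. EEF2K, the kinase that inactivates eEF2 and so slows elongation, had 18.1, 11.6 and 14.9 FPKM in Tibetan, 8.65, 11.3 and 10.7 in Wujin and 14.9, 14.3 and 15.8 in Large White libraries. It was called higher in Tibetan than in Wujin (0.49, limma adjusted p = 0.025), but without Tibetan 1, Tibetan 3 or Wujin 1 the call was lost at adjusted p = 0.0600 to 0.0863. Against Large White the change was −0.03 as deposited and 0.89 after median-ratio scaling, where it was called.

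Among cytosolic synthetases, SARS1, the enzyme for serine, stood out. It had 47.0, 41.6 and 67.3 FPKM in Tibetan, 15.9, 16.9 and 15.8 in Wujin and 17.8, 16.4 and 15.4 in Large White libraries. The Tibetan libraries were all far above the rest, with Tibetan 3 the highest, and Wujin and Large White overlapped. SARS1 rose by 1.57 ± 0.17 against Large White and 1.59 ± 0.17 against Wujin (limma adjusted p = 2.77e-05 and 3.23e-05), or 3.14-fold and 3.21-fold in mean FPKM. After median-ratio scaling the changes were 2.51 and 2.31. It was the only one of 14 cytosolic synthetases called higher against Large White as deposited, while 5 were lower and 8 not called, with a median relative change of 0.69. Of all entries, 13% were called higher and 63.2% lower. After median-ratio scaling 9 of the 14 cytosolic synthetases were higher, none lower and 5 not called, where 32.4% and 33% of all entries were called. Against Wujin, 3 were higher, 3 lower and 8 not called as deposited, and 11, 0 and 3 after median-ratio scaling. There the shares of all entries were 13.8% and 53.9% as deposited, and 30.9% and 30.4% after scaling.

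KARS1, which charges lysine tRNA in both the cytosol and the mitochondrion, was by far the most abundant synthetase. It had 147, 142 and 130.3 FPKM in Tibetan, 246, 252 and 260.3 in Wujin and 324, 309 and 293 in Large White libraries, with no overlap between breeds. It was lower in Tibetan as deposited (−1.14 and −0.86, limma adjusted p = 9.20e-06 and 7.52e-05) but not called after median-ratio scaling (−0.17 and −0.12). HARS1, for histidine, showed the same pattern at 6.10 to 7.68, 14.0 to 15.2 and 15.2 to 16.5 FPKM, with −1.05 against Large White as deposited and −0.16, not called, after median-ratio scaling. RARS1, for arginine, had 12.7 to 15.0 FPKM in Tibetan, 20.1 to 25.7 in Wujin and, in Large White, 23.2 to 25.1, a change of −0.81 against Large White as deposited and 0.12, not called, after median-ratio scaling. WARS1, for tryptophan, was lower against Large White as deposited (−0.59), a call lost without Large White 1 (adjusted p = 0.054 in limma), and its change after median-ratio scaling was 0.30, not called.

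AARS1, GARS1, MARS1 and TARS1 charge alanine, glycine, methionine and threonine, and none was called against Large White as deposited. Each was called higher against Large White after median-ratio scaling (1.25, 1.06, 0.88 and 0.97) and under quantile normalization (0.78, 0.56, 0.64 and 0.68). AARS1 had 30.1, 16.7 and 33.3 FPKM in Tibetan, 13.2, 16.5 and 14.7 in Wujin and 18.5, 20.7 and 21.9 in Large White libraries, so Tibetan 2 lay beside the other breeds. Without Tibetan 2 it was called higher against Large White (0.61, limma adjusted p = 0.00355), and its call against Wujin (0.76) was lost without Tibetan 1 or Tibetan 3 (adjusted p = 0.057). MARS1 had the same arrangement, with 13.2, 8.32 and 14.8 FPKM in Tibetan against 7.64 to 9.55 in Wujin and, in Large White, 10.97 to 12.6, and it was not called against Wujin as deposited but called higher without Tibetan 2 (0.63, limma adjusted p = 0.00373), after median-ratio scaling (1.08) and under quantile normalization (0.87). GARS1 had 21.6 to 33.3, 23.7 to 26.6 and 23.1 to 24.5 FPKM in the 3 breeds, all overlapping, and was called higher in Tibetan than in Large White after median-ratio scaling (1.06) and under quantile normalization (0.56). TARS1 had 15.0, 11.7 and 15.8 FPKM in Tibetan, 6.68, 7.92 and 9.04 in Wujin and 13.1, 13.5 and 13.9 in Large White libraries. Wujin was the low breed for TARS1, which was higher in Tibetan than in Wujin by 0.77 ± 0.14 (limma adjusted p = 0.00121, and 1.46 after median-ratio scaling).

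The mitochondrial synthetases were mostly lower in Tibetan than in Large White muscle as deposited, at a share close to that of all entries. On that scale, 9 of 14 were lower, none higher and 5 not called, where 63.2% and 13% of all entries were called, with a median relative change of 0.21. After median-ratio scaling 5 were higher, 3 lower and 6 not called, where 32.4% and 33% of all entries were called. Those called lower on both scales include RARS2 and PARS2, the enzymes for arginine and proline. RARS2 had 3.13, 2.58 and 2.89 FPKM in Tibetan, 4.90, 7.70 and 6.45 in Wujin and 6.70, 7.98 and 9.51 in Large White libraries. Tibetan was separate, with a fall of 1.22 against Large White on the log2 scale (limma adjusted p = 0.000155, and −0.42 after median-ratio scaling). PARS2 had 2.38, 2.18 and 3.07 FPKM in Tibetan, 3.01, 4.43 and 5.49 in Wujin and 6.19, 7.01 and 7.30 in Large White libraries, and it fell against Large White by 1.15 (limma adjusted p = 0.000365, and −0.37 after median-ratio scaling).

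Under quantile normalization PARS2 was not called against Large White (adjusted p = 0.0713 in limma). Against Wujin, 7 mitochondrial synthetases were lower and 7 not called as deposited, near the 53.9% of all entries called lower, with a median relative change of 0.17. After median-ratio scaling 6 were higher and none lower, where 30.9% and 30.4% of all entries were called. The deposited call of PARS2 against Wujin (−0.56) was lost without Tibetan 1, Tibetan 2, Wujin a or Wujin b, at adjusted p = 0.0604 to 0.0805 in limma. EARS2, for glutamate, had 1.88 to 3.22, 4.45 to 4.55 and 4.76 to 5.44 FPKM in the 3 breeds, lower in Tibetan as deposited (−0.80 against Large White) and near 0 after median-ratio scaling (−0.04, not called). AARS2, the mitochondrial enzyme for alanine, had 1.81 to 3.76, 3.52 to 4.18 and 2.95 to 3.55 FPKM and was not called against Large White as deposited, but was called higher after median-ratio scaling (0.60). VARS2, the mitochondrial enzyme for valine, was highest in Tibetan and Wujin muscle. It had 6.03, 5.01 and 6.86 FPKM in Tibetan, 7.25, 6.70 and 5.88 in Wujin and 4.46, 4.61 and 4.64 in Large White libraries. Both indigenous breeds lay above Large White, with changes of 0.31 and 0.45 that were not called as deposited (adjusted p = 0.0520 and 0.0675 in limma). VARS2 was called higher in Tibetan than in Large White without Tibetan 2 (0.42, adjusted p = 0.0164) or Wujin 1 (0.0368) and after median-ratio scaling (1.14), and higher in Wujin than in Large White under quantile normalization (0.69, adjusted p = 0.0295 in limma).

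The mitochondrial share was read for 10 pairs of a cytosolic and a mitochondrial synthetase, and it does not depend on the scaling of a library. The mitochondrial share was below every Large White library in all 3 Tibetan libraries for 6 pairs, above for 1 and overlapping for 3. For serine the share was 2.84, 2.94 and 1.97% in Tibetan, 7.71, 8.62 and 7.99% in Wujin and 11.3, 9.63 and 14.6% in Large White libraries. For histidine the order was reversed, with 33.7, 34.4 and 35.8% in Tibetan against 15.1, 21.2 and 19.4% in Wujin and 18.6, 20.2 and 23.4% in Large White. HARS2 itself was not called in any comparison as deposited, at 3.19 to 4.29 FPKM in Tibetan, 2.70 to 3.81 in Wujin and, in Large White, 3.48 to 5.04. HARS1 was lower in Tibetan on that scale. After median-ratio scaling HARS2 was called higher in Tibetan (0.68 against Large White and 0.75 against Wujin) and HARS1 was not called. Which of these genes moves therefore depends on the scale. Against Wujin the Tibetan share was below for 3 pairs, above for 2 and overlapping for 5, and Wujin against Large White gave 2, 2 and 6. These counts describe the shares and carry no test. Pairs of other genes were not read, so the counts cannot be called particular to synthetases. Of single entries, 63.2% were called lower and 13% higher in Tibetan than in Large White as deposited. The tyrosine pair includes YARS1, at 0.48 to 1.22 FPKM, whose mean missed the filter.

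**Figure D4:**
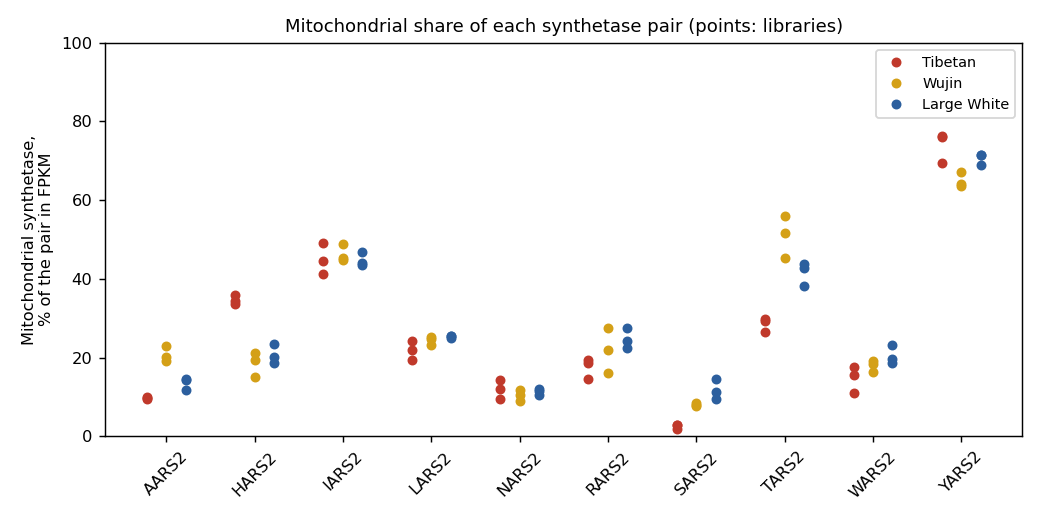
Mitochondrial synthetase as a percent of the FPKM of its pair (for example AARS2 of AARS1 plus AARS2) for 10 amino acids, with 1 point per library. Tibetan points lie below all Large White points in 6 pairs and above them only for HARS2, at 33.7 to 35.8% against 18.6 to 23.4%. Pairs of other genes were not read for comparison, and the mean of YARS1 missed the filter.

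Few of these genes were called between Wujin and Large White, at shares near those of all entries. Changes that were not called were not all small, as for IARS1 and IARS2 below. As deposited, 3 of 67 genes were lower in Wujin and none higher (limma), where 4.85% and 1.67% of all entries were called, and 25 of the 67 had an unadjusted p under 0.05, 1 of them higher, where 4245 of the 13106 entries had one, 786 of them higher. After median-ratio scaling 1 was lower and none higher, where 1.27% and 1.86% of all entries were called. The median relative change was −0.07. TARS1 was lower by a change of −0.71 ± 0.14 (limma adjusted p = 0.033, and −0.49 with an adjusted p of 0.048 after median-ratio scaling). EIF3M, a subunit of eIF3, had 13.1, 13.7 and 13.8 FPKM in Wujin and 20.8, 19.2 and 18.8 in Large White libraries (−0.50, limma adjusted p = 0.0498), with 8.90 to 12.2 FPKM in Tibetan. EIF2B2, given above, changed by −0.43 (adjusted p = 0.048 in limma). Neither EIF3M nor EIF2B2 was called after median-ratio scaling. The TARS1 call was lost without Wujin 1, Wujin a or any Large White library (adjusted p = 0.057 to 0.134), the EIF2B2 call without any 1 of the 9 libraries (0.052 to 0.156) and the EIF3M call without any but Tibetan 3 (0.055 to 0.149).

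Single libraries set part of the spread. Tibetan 2 was the lowest Tibetan library for 46 of 67 genes, or 68.7%, against 48.5% of all entries tested, and for 23 of 28 synthetases. Wujin 1 was the lowest of its breed for 41 of 67 genes, or 61.2%, which is close to its 62.4% over all entries. Large White 3 was the lowest of its breed for 30 of 67 genes, or 44.8%, against 27.4% of all entries. For IARS1 and IARS2, the cytosolic and mitochondrial enzymes for isoleucine, Wujin 1 was far below its breed. IARS1 had 3.94 FPKM in Wujin 1 and 10.6 and 9.82 in Wujin a and b, and IARS2 had 3.76, 8.78 and 7.95 FPKM. In Large White libraries IARS1 had 15.0 to 17.5 and IARS2 12.9 to 13.5 FPKM, and in Tibetan 9.78 to 15.7 and 7.90 to 11.3 FPKM. Neither was called in any comparison as deposited, with changes of −1.02 and −0.93 in Wujin against Large White (adjusted p = 0.0697 and 0.0595 in limma). IARS2 was called lower in Wujin than in Large White without Wujin b (adjusted p = 0.0487), lower in Tibetan than in Large White without Wujin 1 (0.0308) and higher in Tibetan than in Wujin without Wujin a (0.0375). After median-ratio scaling IARS2 was instead called higher in Tibetan than in Large White (0.52, adjusted p = 0.0413 in limma), so that direction depends on the scale, and higher than in Wujin (1.23). IARS1 was called higher in Tibetan than in Wujin without Wujin a (adjusted p = 0.0472 in limma) and after median-ratio scaling (1.31).

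A further 17 tested genes, which include EIF2A, EIF4H, EIF5B, 4 further subunits of eIF3 and the synthetases CARS1, LARS1, NARS1, LARS2, TARS2 and WARS2, are summarized here. Against Large White their changes as deposited ran from −0.85 for WARS2 to 0.13 for CARS1, with 11 lower and none higher, a share near the 63.2% of all entries called lower. After median-ratio scaling they ran from −0.19 to 0.99, with 8 higher and none lower, where 32.4% and 33% of all entries were called. Against Wujin they ran from −0.65 for EIF3G to 0.38 for NARS2, with 6 lower and none higher, where 53.9% and 13.8% of all entries were called, and after median-ratio scaling 11 were higher and none lower, where 30.9% and 30.4% were. None of the 17 was called between Wujin and Large White on either scale.

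A pair of genes did not enter the test. YARS1, for tyrosine, had 0.48 to 0.69 FPKM in Tibetan, 0.96 to 1.22 in Wujin and, in Large White, 1.01 to 1.06, a mean below the filter. EIF4E1B, known as a form of eIF4E from oocytes, was listed at 0 in 8 libraries and at 0.11 FPKM in Wujin b.

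Other genes of the same processes were read from lists by role, with Tibetan against Large White as deposited. In that comparison 13% of all entries were called higher and 63.2% lower, and 32.4% and 33% after median-ratio scaling. Of 5 tested subunits and partners of synthetases, 2 were lower and none higher, with a median relative change of 0.73 against 0 over all entries, and after median-ratio scaling 3 were higher and none lower. EPRS1, the joint enzyme for glutamate and proline, had 14.2, 11.7 and 16.9 FPKM in Tibetan, 15.9, 17.3 and 20.4 in Wujin and 23.4, 24.8 and 24.8 in Large White libraries (−0.74 as deposited, and 0.18, not called, after median-ratio scaling). Of 12 tested genes for termination, recycling and ribosome rescue, 1 was higher and 7 lower (median relative change 0.30), and 7 were higher and 1 lower after median-ratio scaling. GSPT2, a form of the release factor eRF3, had 2.02, 0.83 and 0.81 FPKM in Tibetan, 2.14, 2.81 and 3.27 in Wujin and 5.26, 6.77 and 7.10 in Large White libraries, and fell by 1.77 against Large White (limma adjusted p = 7.56e-05, and −1.10 after median-ratio scaling). PELO, which frees stalled ribosomes, had 23.3, 15.3 and 21.2 FPKM in Tibetan against 10.8 to 11.4 in Wujin and, in Large White, 10.3 to 11.8, and rose by 0.76 (limma adjusted p = 0.00155, and 1.67 after median-ratio scaling).

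The shares of all entries were again 13% higher and 63.2% lower as deposited, and 32.4% and 33% after median-ratio scaling. Of 10 mitochondrial translation factors, 1 was higher and 5 lower (median relative change 0.35), and 4 were higher and 1 lower after median-ratio scaling. MTRFR, GFM2 and MRRF had the smallest p of this list and were called lower as deposited. MTRFR had 2.19, 2.45 and 2.26 FPKM in Tibetan, 3.87, 4.14 and 4.99 in Wujin and 6.52, 4.95 and 5.42 in Large White libraries. It fell against Large White (limma adjusted p = 0.00011), with a change of −0.24, not called, after median-ratio scaling. GFM2 and MRRF changed by −0.89 and −0.55 as deposited, and by −0.34 (called) and 0.29 (not called) after median-ratio scaling. TUFM, the mitochondrial elongation factor Tu, was the one called higher, at 62.2, 50.9 and 60.9 FPKM in Tibetan, 52.2, 43.0 and 41.0 in Wujin and 42.9, 40.1 and 42.2 in Large White libraries (0.46, limma adjusted p = 0.00936, and 1.42 after median-ratio scaling). Of 6 enzymes that modify factors or serve selenocysteine, 1 was higher and 3 lower (median relative change 0.50), and all 6 were higher after median-ratio scaling. DHPS, which makes the first step of the hypusine of eIF5A, had 35.8, 30.1 and 33.7 FPKM in Tibetan against 15.6 to 19.5 in Wujin and, in Large White, 15.8 to 17.5, and rose by 0.96 (limma adjusted p = 8.24e-05, and 1.90 after median-ratio scaling).

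Of 21 tested mRNA-binding and translational control genes, 3 were higher and 10 lower (median relative change 0.24), and 11 were higher and 6 lower after median-ratio scaling. All entries were called at 13% and 63.2% as deposited, and at 32.4% and 33% after that scaling. PDCD4, an inhibitor that binds eIF4A, had 7.36, 6.29 and 6.11 FPKM in Tibetan, 19.9, 25.4 and 26.4 in Wujin and 46.1, 46.5 and 43.3 in Large White libraries. It fell by 2.61 on the log2 scale (limma adjusted p = 3.22e-07, and −1.71 after median-ratio scaling), in graded order with no overlap. PABPC1, the main cytoplasmic poly(A)-binding protein, had 67.1, 50.6 and 47.0 FPKM in Tibetan, 181, 208 and 219 in Wujin and 230.1, 236 and 242 in Large White libraries, a fall of 2.10 (limma adjusted p = 2.04e-06, and −1.13 after median-ratio scaling). IGF2BP1, a fetal mRNA-binding protein, was listed at 0 in all 3 Tibetan libraries, at 1.73 to 1.91 FPKM in Wujin and at 3.09 to 4.47 in Large White.

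Of 17 tested genes of the stress response that eIF2 phosphorylation starts and of amino acid supply, 5 were higher and 8 lower (median relative change 0.36), and 7 were higher and 6 lower after median-ratio scaling. The corresponding shares of all entries were 13% and 63.2%, and 32.4% and 33%. SLC3A2, the heavy chain of several amino acid transporters, had 127, 66.3 and 175 FPKM in Tibetan, 13.7, 12.9 and 13.8 in Wujin and 13.4, 13.2 and 13.2 in Large White libraries. It rose by 3.01 ± 0.29 (limma adjusted p = 1.26e-05, and 3.95 after median-ratio scaling), with Tibetan 2 the lowest of its breed. PPP1R15A, which directs the phosphatase that resets eIF2, had 45.2, 28.6 and 33.7 FPKM in Tibetan, 23.6, 14.9 and 17.1 in Wujin and 12.6, 9.36 and 9.62 in Large White libraries, and rose by 1.66 (limma adjusted p = 8.99e-05, and 2.58 after median-ratio scaling). ASNS, asparagine synthetase, which is not a tRNA synthetase, had 4.97, 4.66 and 13.3 FPKM in Tibetan, 75.3, 63.8 and 48.5 in Wujin and 50.8, 37.0 and 36.6 in Large White libraries, and fell by 2.42 (limma adjusted p = 0.000157, and −1.52 after median-ratio scaling). GPT2, the mitochondrial alanine transaminase, fell by 2.22 (limma adjusted p = 7.91e-06, and −1.74 after median-ratio scaling), with 0.14 to 0.70 FPKM in Tibetan and 4.42 to 5.98 in Large White libraries.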

How the data were processed

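RNA from embryonic longissimus dorsi was taken up in Trizol and built into Illumina TruSeq libraries, per the labels' protocols. The authors deposited FPKM for 9 libraries in 1 table, per the file headers. The submitters' processing notes name TopHat. For the quantifier, strand setting, genome build and annotation, the sources used here give nothing. Depth in fragments is unknown, so intervals for counting error are left out. Estimated from the steps of low values, relative depth was 1.00 to 1.22 of Large White 1. A pair of Wujin columns share a header and are called Wujin a and b. Symbols came from a gene name table matched by identifier (56.9% of 19643 entries, which hold 19597 distinct identifiers), so translation genes without a symbol, among them EEF1A1, EEF1A2, EIF5A and EIF2S1, were not analysed here. No sequences or coordinates were used.

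limma 3.58.1 in R 4.3.3 fitted breed means to log2(FPKM + 1) over 9 libraries with 1 shared spread, for the 13106 entries whose mean reached 1 FPKM (eBayes with trend). Benjamini-Hochberg adjustment covered all entries tested. Fold changes on this scale understate those of low genes. The code was tested on simulated data. The alternatives were median-ratio and quantile scaling, another pseudocount (0.1 or 5), a filter at 5 FPKM or none, each library left out, a replicate block, and only the 6 libraries of a pair.

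The text names 24 of 34 genes fixed by role, and in each role and breed pair the 3 highest and 3 lowest changes among called genes, 40 genes in all. A pair of genes enters the counts and sums but is not reported here. It adds up to 3 genes of smallest p per pathway list. EIF1B, EIF2B3, EIF2B4, EIF2D, EEF1D, HARS2, VARS2, IARS1, IARS2, EIF4E1B, PELO, TUFM, ASNS and PPP1R15A were added once their values were known. The genes and lists were chosen with earlier results of these data known.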

Additional observations from a re-analysis of the deposited data

How the results depend on the processing

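Scaling moved the counts of higher and lower calls most. In Tibetan minus Large White, the 7 higher and 33 lower genes became 37 and 6 under median-ratio scaling and 28 and 15 under quantile normalization. The shares of all entries moved too, from 13% and 63.2% to 32.4% and 33%, and to 31.7% and 31.4%. In Tibetan minus Wujin, 15 and 24 became 43 and 4, and 30 and 11. There the shares of all entries went from 13.8% and 53.9% to 30.9% and 30.4%, and to 29.6% and 29.7%. In Wujin minus Large White, 0 higher became 1 under quantile normalization, and 3 lower became 1 with a pseudocount of 0.1, 9 with a pseudocount of 5, 1 under median-ratio scaling and 1 with only the 6 libraries of the pair. Of all entries, the 1.67% higher became 4.18%, and the 4.85% lower became 1.14%, 11.5%, 1.27% and 1.25% in the same order. Leaving out 1 library gave 6 to 10 higher and 30 to 36 lower in Tibetan minus Large White, 11 to 17 and 16 to 28 in Tibetan minus Wujin, 0 to 4 lower in Wujin minus Large White (0 without Wujin 1, Wujin a or any Large White library, 1 without Tibetan 1), and 38 to 50 genes called in the F test, against 50 with all libraries (38 without Large White 1 or 3). The same fits called 11.5 to 13.8% and 58.7 to 65.6% of all entries in Tibetan minus Large White. They called 12.1 to 14.3% and 48.4 to 59.8% in Tibetan minus Wujin, 0.328 to 10.5% lower in Wujin minus Large White, and 71.3 to 79.5% in the F test. Of 165 log2 changes of named genes, 74 kept direction and side of the threshold in all 19 settings. Called changes turned sign in 17 cases under median-ratio scaling, in 12 under quantile normalization and in no other setting. Under median-ratio scaling the changes against Large White became 0.16 for EEF2, 0.47 for EIF2AK1, 0.16 for EIF2B2, 0.38 for EIF2B5, 0.48 for EIF3A, 0.13 for EIF3D, 0.10 for EIF3M, 0.12 for RARS1, 0.30 for WARS1, 0.50 for DPH1, 0.18 for EPRS1, 0.11 for GTPBP1, 0.29 for MRRF and 0.56 for SECISBP2. Against Wujin they became 0.32 for EEF2, 0.36 for EIF2B2 and 0.0044 for PARS2. Under quantile normalization those against Large White became 0.071 for EARS2, 0.25 for EIF2AK1, 0.21 for EIF2B5, 0.12 for WARS1, 0.033 for DENR, 0.47 for DPH1, 0.029 for GFM2, 0.27 for MRRF, 0.32 for PSTK and 0.52 for SECISBP2, and against Wujin 0.035 for EIF2B2 and 0.056 for PARS2. The cause was not tested. With the replicate number as a block, possible only for Tibetan and Large White, 7 genes were higher and 32 lower, where 13.1% and 63.7% of all entries were called. With that block the calls of EIF2D, EIF3A, DPH1 and SECISBP2 were lost (adjusted p = 0.0771, 0.0510, 0.0548 and 0.0658 in limma) and EIF1B was called higher (0.0282). Same-numbered libraries of those breeds had deviations that correlated at 0.013, −0.023 and −0.076, and no library correlated best with its own number. These values cannot tell whether same-numbered libraries share anything beyond the number. Fragment depth is unknown, which limits genes near 1 FPKM such as EIF2AK2.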
